A study of Mus musculus with 6 samples.

Results

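The genes described here encode components of T cell receptor signalling: the CD3 chains and coreceptors, the kinases that start the signal, the adaptors and exchange factors that carry it, and the proteins that restrain it. They were taken by name, 37 genes in all, as array probes whose deposited gene name equals the symbol. Of these, 36 had a probe (75 probes in all) and 1, Itpkb, an inositol trisphosphate kinase, had none. All 36 were tested, among 16395 genes tested and 27376 gene names on the array. 74 of the 75 probes lay above background on at least 3 of the 6 arrays, and the exception was 1 of the 3 Nfatc3 probes.

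The source of RNA was sorted liver CD8+ T cells, taken at 13 to 14 weeks of age from C57BL/6 females. Every animal carried the dnTGFβRII transgene, which encodes a dominant negative TGF-beta receptor II, and this transgene alone defines the TG group. The TGC3 group carried the same transgene and was CXCR3-/-, so that it also lacked the chemokine receptor CXCR3. Neither group lacked the transgene, and a difference between them is therefore a difference among cells that all carried it. The transgene is known to be driven in T cells, and the labels do not name its promoter. Each group had 3 samples (TG 1 to TG 3 and TGC3 1 to TGC3 3), each read on its own 1-colour Agilent array. Nothing in the labels says that the samples came from separate mice, so the p-values reflect how these samples vary, which may be technical variation. The groups were hybridised on a slide each. Slide cannot be told apart from genotype in any comparison. The comparison was set up to ask what CXCR3 contributes to the activation and proliferation of these cells.

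The T cell receptor recognises a peptide on an MHC molecule, but it signals only through the CD3 chains, whose cytoplasmic tails hold tyrosine motifs called ITAMs. The kinase LCK, held near the receptor by the CD8 coreceptor, phosphorylates the ITAMs, and ZAP70 docks there and phosphorylates the adaptors LAT and SLP-76. From these adaptors the signal runs to calcium and NFAT, to RAS, and through PKC-theta, BCL10 and MALT1 to NF-kappaB. Phosphatases, ubiquitin ligases, diacylglycerol kinases and the surface proteins CD5 and CD6 set how strong the signal becomes.

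Several probes read the very codons on which this signal depends, and they are shown to place the measurements on the proteins. Each is a 60-base probe as the array files list it, positioned on mouse build mm9, with the codons that matter in capitals. In the Cd3d and Cd247 probes the capitals mark the tyrosine and the leucine or isoleucine codons of an ITAM. Only 32 of the 41174 probes on the array held such a pattern in an open reading frame. In Lat they mark the tyrosine and asparagine of a YxN motif, the form bound by the adaptor GRB2, and in Cd3g 2 cysteines of the extracellular part. In Csk they mark the histidine, arginine and aspartate of the kinase's catalytic loop, and in Ptpn6 the stop codon. The Cd247 and Csk probes shown are not the brightest of their genes over both groups, so the gene's change was read from another probe.
Cd3d, chr9:44794171-44794402, plus strand, across an intron: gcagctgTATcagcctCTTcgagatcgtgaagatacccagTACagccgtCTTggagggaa
Cd247, chr1:167786567-167787585, plus strand, across an intron: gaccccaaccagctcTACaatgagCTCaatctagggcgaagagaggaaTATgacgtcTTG
Cd3g, chr9:44781716-44782300, minus strand, across an intron: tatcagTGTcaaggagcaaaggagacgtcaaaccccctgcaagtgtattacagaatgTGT
Lat, chr7:133507719-133507778, minus strand: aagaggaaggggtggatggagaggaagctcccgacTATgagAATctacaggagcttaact
Csk, chr9:57475817-57475876, minus strand: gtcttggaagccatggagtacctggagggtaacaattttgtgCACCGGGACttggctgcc
Ptpn6, chr6:124671114-124671173, minus strand: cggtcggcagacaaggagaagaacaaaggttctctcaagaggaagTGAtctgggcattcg

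Values are log2 of the processed signal minus the array's 75th percentile, so that 0 is that percentile and a step of 1 is a 2-fold difference. A gene was read by its brightest probe, and values of different genes were not set against each other. Changes are TGC3 minus TG with their standard error (SE), and "rose" or "fell" is used only where limma's adjusted p (Benjamini-Hochberg over all genes tested) lay under 0.05. The targeted gene bore out the labels: Cxcr3 measured 68779, 66107 and 73352 intensity units in the TG samples against 23.8, 33.0 and 27.0 in the TGC3 samples. Whether the Tgfbr2 probe also reads the transgene was not tested. It changed by -0.15 ± 0.07 (SE, n = 3 per group, limma adjusted p = 0.189). An array had 58.9% to 63.8% of its probes well above background. Across genes, arrays correlated at 0.993 to 0.995 within a group and at 0.983 to 0.986 between groups. The CD8 T cell markers Cd8a, Cd8b1, Cd3d, Cd3e and Cd3g lay above background on every array. Cd4 lay between -4.39 and -4.15 on the 6 arrays.

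Receptor signalling genes lay slightly lower in TGC3, by the median of their changes, in every processing setting tried but normexp background correction left unrepaired. 8 of 36 (22.2%) fell: Cd3d and Cd3g among the receptor chains, Vav1 and Rasgrp1 among the exchange factors, and Cd5, Cd6, Cbl and Ptpn6 among the negative regulators. None rose at the adjusted threshold in limma, nor at an unadjusted p under 0.05. Of all genes tested, 9.48% fell and 16.6% rose, 26.1% in either direction. The change was below 0 for 32 of 36 members (88.9%), against 8426 of 16395 genes tested (51.4%), and its median was -0.18 for the members and -0.01 for all genes tested. In bulk RNA, fewer cells that express a gene and less RNA per cell cannot be told apart. The falls were small: the signal of the 8 genes was 1.19-fold (Cd3d, Rasgrp1 and Vav1) to 1.34-fold (Ptpn6) higher in TG than in TGC3.

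**Figure D1:**
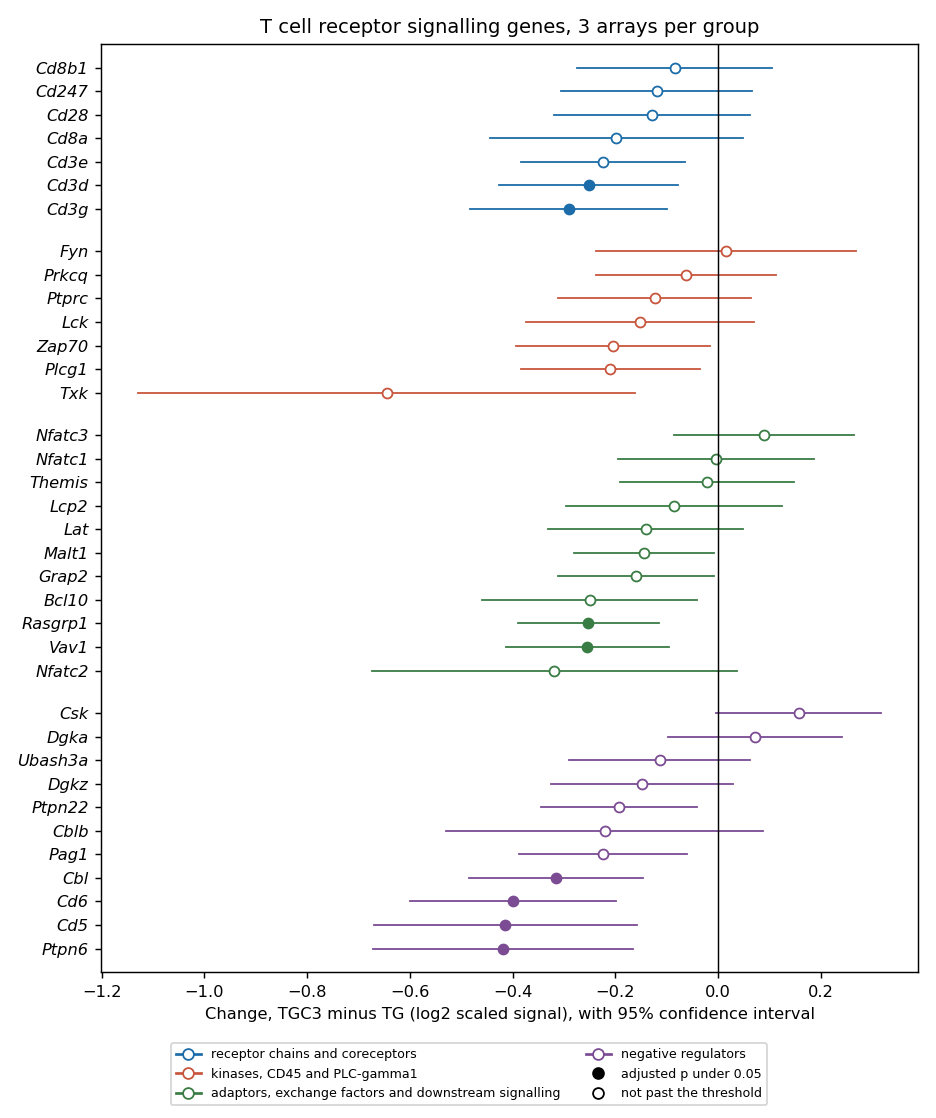
Change in log2 scaled signal (TGC3 minus TG) of the 36 tested genes by role, with 95% confidence intervals from 3 arrays per group. Filled points mark the 8 genes with an adjusted p under 0.05, all left of 0, and 4 open points (Fyn, Nfatc3, Csk and Dgka) lie right of 0.

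The members are mostly bright probes, and change moved with signal on these arrays. Ordered by mean signal, 21 of the 36 members lay in the brightest decile of genes and 0 in the dimmest 4 deciles. In the brightest decile 11.8% of genes fell and the median change was -0.08, while in the dimmest it was 0.33. The part of signal in the members' falls was not tested. All TGC3 arrays lay below all TG arrays for 19 members (52.8%; 22.4% of all genes tested) and above them for 1, Csk (24.3% of all genes tested). The median SD of a member among the 3 arrays was 0.08 in each group, and the largest was 0.40, for Txk in TGC3.

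Among the receptor chains and coreceptors, 2 of 7 fell and 0 rose (9.48% and 16.6% of all genes tested). All 7 changes lay below 0 (median -0.20), against 51.4% of all genes tested. Cd3d encodes the CD3 delta chain. Its values were 7.29, 7.24 and 7.27 on TG 1 to TG 3 and 7.04, 7.11 and 6.90 on TGC3 1 to TGC3 3. The groups did not overlap, and the lowest value was that of TGC3 3. It fell by 0.25 on the log2 scale (SE 0.07, n = 3 per group, limma adjusted p = 0.0479). Cd3g, the CD3 gamma chain, measured 5.07, 5.00 and 5.19 in TG and 4.88, 4.80 and 4.71 in TGC3. It likewise showed no overlap, and it fell by 0.29 (SE 0.08, limma adjusted p = 0.0412).

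Cd3e, the CD3 epsilon chain that pairs with both, measured 3.35, 3.20 and 3.30 in TG and 3.09, 3.08 and 3.02 in TGC3. Its groups too were separate, but at -0.22 ± 0.07 its brightest probe missed the threshold (limma adjusted p = 0.0517). The 3 CD3 genes lie side by side on chromosome 9. Their changes of -0.22, -0.25 and -0.29 differed from one another by less than the largest of their standard errors. Cd247, which encodes the zeta chain with most of the complex's ITAMs, changed by -0.12 ± 0.08 (limma adjusted p = 0.293). The ITAM probe printed for it changed by -0.13 ± 0.09, and the groups overlapped at both probes. Cd247 had 4 probes in all. A dimmer probe changed by 0.56 ± 0.22 (limma adjusted p = 0.117 over all probes), with every TGC3 array above every TG array. The last probe changed by 0.06 ± 0.23 with overlapping groups.

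The CD8 coreceptor chains showed overlapping groups. Cd8a measured 7.63, 7.36 and 7.65 in TG and 7.44, 7.27 and 7.33 in TGC3, a change of -0.20 ± 0.10 (limma adjusted p = 0.200). TG 2 lay within the range of the TGC3 arrays, while the other TG arrays lay above it. Cd8b1 measured 8.27, 8.12 and 8.13 in TG and 8.06, 8.20 and 8.02 in TGC3, a change of -0.08 ± 0.08 with a 95% interval of -0.28 to 0.11. Cd28, the costimulatory receptor, changed by -0.13 ± 0.08 at its brightest probe (limma adjusted p = 0.272), and another of its probes went the other way, as described below.

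The kinases, the phosphatase CD45 (Ptprc) and PLC-gamma1 (Plcg1) gave no call: 0 of 7 tested fell or rose in limma at the adjusted threshold, and 3 (Zap70, Plcg1 and Txk) lay lower at an unadjusted p under 0.05. The median change was -0.15. Of all genes tested, 26.1% fell or rose at the adjusted threshold. Lck, the kinase that phosphorylates the ITAMs, measured 6.50, 6.22 and 6.45 in TG and 6.24, 6.29 and 6.18 in TGC3 (-0.15 ± 0.09, limma adjusted p = 0.266). Its groups overlapped through TG 2. Zap70, the kinase recruited to phosphorylated ITAMs, had separate groups, at 4.74, 4.55 and 4.65 in TG and 4.46, 4.36 and 4.51 in TGC3 (-0.20 ± 0.08, limma adjusted p = 0.104). Fyn, a kinase of the same family as Lck, changed by 0.02 ± 0.10, with an interval of -0.24 to 0.27.

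Txk, a kinase of the TEC family that acts on PLC-gamma, had the largest change of any member without passing. It measured 4.47, 4.35 and 4.28 in TG and 3.53, 4.18 and 3.45 in TGC3. Every TGC3 array lay below every TG array, but TGC3 2 lay close to TG and TGC3 1 and TGC3 3 far below. The change was -0.65 ± 0.20 (n = 3 per group, limma adjusted p = 0.0595). Without TGC3 2 it was -0.87, with a limma adjusted p of 0.00657. Txk passed in only this 1 of the 6 fits that left out 1 array. Its change over the 6 ranged from -0.87 to -0.51, with a limma adjusted p of up to 0.153. Its other probe gave the same pattern, at 2.01, 1.93 and 2.03 in TG and 1.30, 1.92 and 1.22 in TGC3. There TGC3 2 lay just below the lowest TG array.

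Plcg1, the phospholipase that makes the second messengers for calcium and RAS, changed by -0.21 ± 0.07 (limma adjusted p = 0.0795) with separate groups. Ptprc, whose product CD45 keeps LCK active, changed by -0.12 ± 0.08, and Prkcq, PKC-theta, by -0.06 ± 0.07. The groups of both overlapped. Their 95% intervals, -0.31 to 0.07 and -0.24 to 0.11, held 0.

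Of the adaptors, exchange factors and downstream genes, 2 of 11 fell and 0 rose (9.48% and 16.6% of all genes tested). Their median change was -0.14, with 10 of 11 below 0 (51.4% of all genes tested). Both that fell encode exchange factors. Rasgrp1, which loads RAS with GTP when diacylglycerol is made, measured 3.87, 3.95 and 3.95 in TG and 3.68, 3.68 and 3.66 in TGC3. The 3 TGC3 arrays lay close together and all below TG, and the gene fell by 0.25 (SE 0.06, n = 3 per group, limma adjusted p = 0.0237). Its other probe changed by -0.10 ± 0.09 with overlapping groups. Vav1, the exchange factor for RAC that reshapes the actin cytoskeleton, measured 3.01, 2.95 and 3.01 in TG and 2.72, 2.67 and 2.82 in TGC3. It fell by 0.25 (SE 0.07, limma adjusted p = 0.0357), and its other probe changed by -0.28 ± 0.08.

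The scaffold genes gave no call. Lat measured 5.69, 5.53 and 5.75 in TG and 5.54, 5.46 and 5.54 in TGC3 (-0.14 ± 0.08, limma adjusted p = 0.229), with TG 2 inside the range of TGC3. Lcp2, which encodes SLP-76, changed by -0.09 ± 0.09. Grap2, which encodes the GADS adaptor linking them, changed by -0.16 ± 0.06 (limma adjusted p = 0.111) with separate groups. Themis, a T cell adaptor needed for thymocyte selection, changed by -0.02 ± 0.07.

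The genes of the NF-kappaB branch, Bcl10 and Malt1, changed by -0.25 ± 0.09 and -0.14 ± 0.06 with separate groups, and neither passed (limma adjusted p = 0.0814 and 0.108). None of the NFAT transcription factor genes passed, and their intervals overlapped. Nfatc1 changed by -0.004 ± 0.08 (interval -0.20 to 0.19), Nfatc2 by -0.32 ± 0.15 (interval -0.68 to 0.04) and Nfatc3 by 0.09 ± 0.07 (interval -0.09 to 0.26). The wider interval of Nfatc2 came with the larger spread of its arrays, with an SD of 0.18 in TG and 0.23 in TGC3.

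The negative regulators held 4 of the 8 genes that fell, 4 of 11 tested, against 9.48% of all genes tested. Their median change was -0.22, with 9 of 11 below 0 (51.4% of all genes tested). At an unadjusted limma p under 0.05, 6 of 11 lay lower. The same held for 3 of 7 receptor chains, 3 of 7 genes of the kinase group and 5 of 11 of the adaptor group. Cd6, a surface receptor related to CD5, measured 6.77, 6.74 and 6.80 in TG and 6.39, 6.49 and 6.23 in TGC3. The groups were separate, with TGC3 2 closest to TG, and the gene fell by 0.40 (SE 0.08, n = 3 per group, limma adjusted p = 0.0188). Its other probe changed by -0.20 ± 0.07, also with separate groups. Cd5, which recruits inhibitory enzymes to the receptor, measured 6.09, 6.00 and 6.15 in TG and 5.62, 5.87 and 5.51 in TGC3. TGC3 2 lay closest to TG, and the gene fell by 0.41 (SE 0.11, limma adjusted p = 0.0349).

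Ptpn6, which encodes the phosphatase SHP-1, measured 4.55, 4.38 and 4.74 in TG and 4.17, 4.06 and 4.18 in TGC3 at the probe over its stop codon. It fell by 0.42 (SE 0.10, limma adjusted p = 0.0327). Its spread was larger in TG, with an SD of 0.18 against 0.07 in TGC3. Cbl, a ubiquitin ligase that marks receptor components for removal, measured 0.93, 0.83 and 0.93 in TG and 0.67, 0.57 and 0.51 in TGC3. It fell by 0.32 (SE 0.07, limma adjusted p = 0.0228), and its other probe changed by -0.31 ± 0.16. Cblb, the related ligase, changed by -0.22 ± 0.13 with overlapping groups (limma adjusted p = 0.246).

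**Figure D2:**
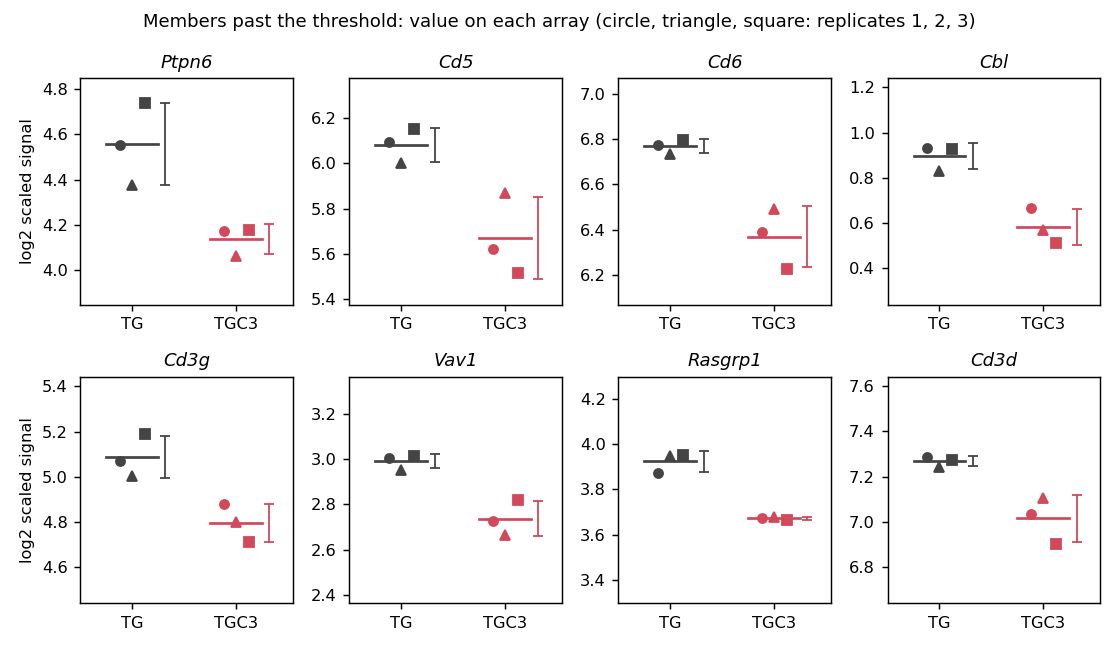
Log2 scaled signal of the 8 genes that fell, on each of 3 TG and 3 TGC3 arrays; horizontal lines are group means and bars beside them the SD, and every panel spans 1 log2 unit. In each panel all TGC3 arrays lie below all TG arrays, and TGC3 replicate 2 (triangle) is the highest TGC3 array for Cd5, Cd6, Cd3d and, by less than 0.01, Rasgrp1.

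Other inhibitory genes came near the threshold without passing. Pag1, the membrane anchor of CSK, changed by -0.22 ± 0.07 (limma adjusted p = 0.0555), and Ptpn22, a phosphatase that acts on LCK and ZAP70, by -0.19 ± 0.06 (limma adjusted p = 0.0685). The groups of both were separate. Ubash3a (-0.11 ± 0.07) and the diacylglycerol kinase gene Dgkz (-0.15 ± 0.07) did not pass, and Dgka, the related kinase gene, changed by 0.07 ± 0.07. Csk, whose product inactivates LCK, was the only member with every TGC3 array above every TG array at its brightest probe, at 2.40, 2.43 and 2.46 in TG and 2.49, 2.65 and 2.62 in TGC3. That change of 0.16 ± 0.07 did not pass (limma adjusted p = 0.131). Its sign turned to -0.02 when arrays were centred on their median, to -0.06 with the mean of its probes and to -0.28 with the most variable one. That most variable probe fell (limma adjusted p = 0.0303 over all probes). In TG it was the brighter Csk probe, with a mean of 2.51 against 2.43. In TGC3 it was the dimmer, at 2.22 against 2.59. The direction given for Csk therefore rested on which probe was read.

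None of the 8 genes passed in all 6 of the fits that left out 1 array each. The number of members that fell, whether or not among the 8, was 7 when TGC3 2 was left out and 2 when TGC3 3 or TG 2 was. It was 1 when TGC3 1 or TG 3 was left out, and 0 when TG 1 was. Of all 16395 genes tested, 1507 fell without TGC3 2, 756 without TGC3 3 and 611 without TG 2. The count was 738 without TGC3 1, 814 without TG 3 and 572 without TG 1. Without TGC3 2, 5 of the 7 members were among the 8, and Ptpn22 and Txk also fell. Without TG 3 the member that fell was Pag1, and 0 of the 8 passed. Without TG 1, 10 members lay lower at an unadjusted p under 0.05. Cbl passed in 3 of these 6 fits (without TGC3 1, TGC3 2 or TG 2, limma adjusted p = 0.0376 to 0.0785 over the 6), and Cd6 in 2 (without TGC3 2 or TGC3 3, 0.0172 to 0.0610). Cd3d (0.0374 to 0.134), Cd5 (0.0146 to 0.0989) and Rasgrp1 (0.0412 to 0.0829) passed only without TGC3 2. Vav1 passed only without TGC3 3 (0.0453 to 0.108), Ptpn6 only without TG 2 (0.0304 to 0.0889), and Cd3g in none of the 6 (0.0649 to 0.113). The change of all 8 stayed below 0 in every one of these fits, and the members' median ranged from -0.20 to -0.15.

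The scaling of the arrays moved the count as well. Centring each array on its median moved the median of all genes from -0.01 to -0.18 and the members' median to -0.35. 28 of 36 members then fell, as did 4784 of 16395 genes tested. The changes of Fyn, Nfatc3, Csk and Dgka, the 4 above 0, then lay below it too. Both scalings shift all genes of an array alike, so the members' median less that of all genes, -0.17, could not differ. It was -0.11 with quantile normalization, -0.10 with cyclic loess and -0.09 among genes above the median signal. Without a filter on dim probes it was -0.30, and with unrepaired normexp correction 0.24. Of all genes called, 63.7% were higher in TGC3, and 27.4% after centring on the median. Quantile normalization and the deposited normalized values each left 4 of 36 members lower (Cbl, Cd5, Cd6 and Ptpn6), against 1413 and 1408 of 16395 genes tested. Cyclic loess left 2 of 36, Cbl and Cd6, against 1222 of 16395 genes tested. With normexp background correction the members' median was 0.17 and 0 members fell, also at an unadjusted p under 0.05. With 7 aberrant spot backgrounds on TG 3 replaced by that array's median background, the same correction gave a median of -0.18 and 11 members lower. Of all 16395 genes tested, 1870 were then lower. Without a filter on dim probes 0 members fell in limma, and 579 of 27370 genes tested did. At an unadjusted limma p under 0.05, 14 members lay lower, against 17 with the filter. The members' median was as before, while limma's variance estimate and the adjustment both drew on more genes.

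**Figure D3:**
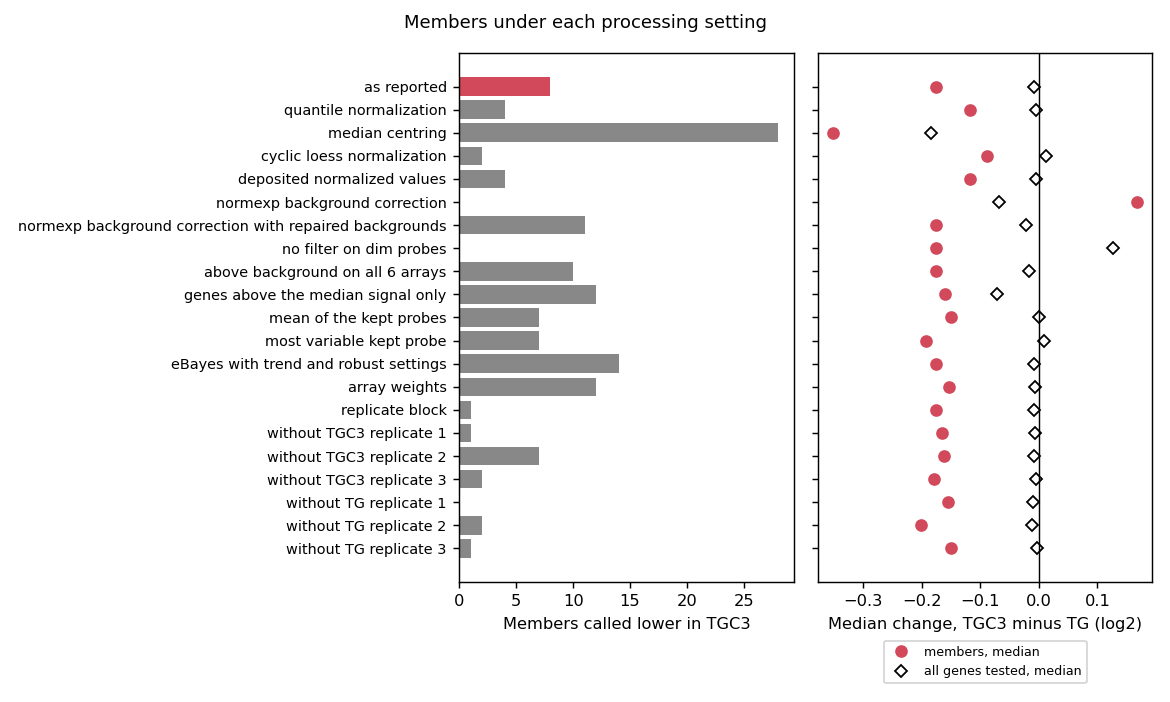
Left, the number of members called lower in TGC3 under each processing setting (limma adjusted p under 0.05), from 0 to 28 with 8 as reported. Right, the median change (TGC3 minus TG, log2) of the members (circles) and of all genes tested (diamonds); the members' circle lies left of the diamond in every setting but normexp with unrepaired backgrounds.

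Probes of the same gene did not always change alike. 24 members were read by more than 1 probe: all probes lay below 0 for 12, above 0 for 1 (Nfatc3), and on both sides for 11. Over all 25103 probes tested together, 9 of the members' 74 probes fell (12.2%, against 8.37% of all probes) and 1 rose (13.7% of all probes rose). The 9 included probes of Cd3e and Csk that did not read those genes above. The dimmer Cd3e probe fell by 0.28 (SE 0.07, limma adjusted p = 0.0404 over all probes), at -0.54, -0.73 and -0.65 in TG and -0.87, -0.95 and -0.94 in TGC3. The Cd3d probe, at the same -0.25, missed the threshold when adjusted over all probes.

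The difference between a gene's brightest probe and each of its other probes was then tested within arrays, a comparison added after the data were seen. 4 of the members' 38 pairs differed (10.5%), against 11.0% of all 8708 such pairs, so that members did so about as often as genes at large. The pairs belonged to Cd28, Ptpn6, Csk and Bcl10. The largest was in Cd28. Its brightest probe, near the 3′ end of the RefSeq transcript (chr1:60829679-60829738, mm9), measured 1.16, 1.11 and 1.26 in TG and 0.95, 1.04 and 1.15 in TGC3. The other, named for an Ensembl transcript (chr1:60820867-60820926) and open in no reading frame, rose by 0.75 (SE 0.14, limma adjusted p = 0.0146), from -0.60, -0.51 and -0.19 in TG to 0.21, 0.22 and 0.51 in TGC3. The first probe's change less the second's was -0.88 ± 0.10 (limma adjusted p = 0.00774), and it passed without any 1 of the 6 arrays (adjusted p = 0.0151 to 0.0372).

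Csk went in opposite directions at its probes. The coding probe printed above, over the catalytic loop, fell by 0.28 (SE 0.07, limma adjusted p = 0.0303), at 2.56, 2.45 and 2.50 in TG and 2.26, 2.15 and 2.25 in TGC3. The probe read as the brightest, which was the brighter in TGC3 but not in TG, lies toward the 3′ end (chr9:57474734-57474793, mm9). It is the one whose change was 0.16. Both separated the groups, in opposite directions. The difference of 0.44 ± 0.09 passed (limma adjusted p = 0.0302), also without TGC3 1 (0.0446), but not without any other 1 array (0.0629 to 0.0948).

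For Ptpn6, the probe over the stop codon fell, while a probe near the transcript's 5′ end (chr6:124682988-124683047, mm9) changed by 0.11 ± 0.07 with overlapping groups. The difference was -0.53 ± 0.09 (limma adjusted p = 0.0201), and it passed without TG 3 (0.0340) and not without any other 1 array (0.0508 to 0.0645). The remaining Ptpn6 probe changed by -0.29 ± 0.14. For Bcl10, the brightest probe measured 2.58, 2.66 and 2.74 in TG and 2.51, 2.27 and 2.44 in TGC3, a change of -0.25. The other, open in no reading frame, measured 0.88, 1.03 and 1.06 in TG and 1.19, 1.28 and 1.15 in TGC3, a change of 0.22 ± 0.08. The groups were separate at both, in opposite directions. The difference was -0.47 ± 0.10 (limma adjusted p = 0.0375), which passed only without TGC3 2 (0.0420, against 0.0636 to 0.111 without any other 1 array). Which transcript each probe reads was not tested.

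**Figure D4:**
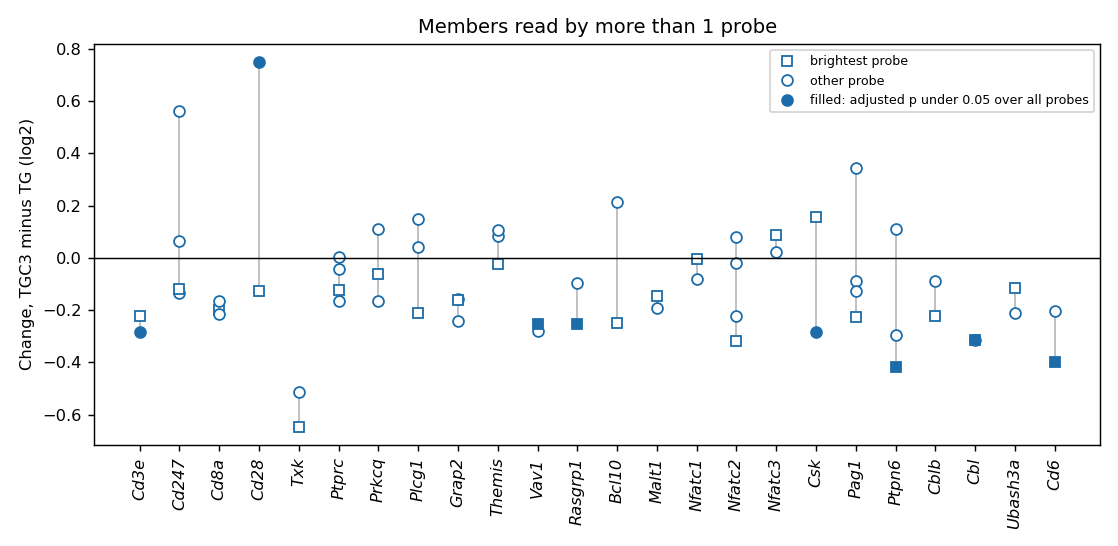
Change (TGC3 minus TG, log2) at every kept probe of the 24 members read by more than 1 probe; squares are the brightest probe, circles the others, and filled symbols have an adjusted p under 0.05 over all 25103 probes. The Cd28 probes lie at -0.13 and 0.75 and the Csk probes at 0.16 and -0.28.

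Other genes of the pathway were read from a list that holds no member. Of 67 listed, 66 were tested (Hras had no probe). In limma 13 fell and 0 rose at the adjusted threshold, against 9.48% and 16.6% of all genes tested. At an unadjusted p under 0.05, 1 was higher and 20 lower. The median change was -0.11, with 53 of 66 below 0 (51.4% of all genes tested). The largest change was in Tec, a kinase of the same family as Txk, at 1.02, 0.89 and 0.99 in TG and 0.15, 0.22 and 0.28 in TGC3. It fell by 0.75 (SE 0.07, limma adjusted p = 0.00227) and passed without any 1 of the 6 arrays (0.00752 to 0.0118). Sh3bp2 (-0.53), Lax1 (-0.48), Rasa2 (-0.48) and Nck1 (-0.46) also fell and passed without any 1 array, and Sla2 (-0.38) fell and passed in 3 of those 6 fits. Sh3bp2 and Nck1 encode adaptors, Lax1 and Sla2 encode inhibitory adaptors, and Rasa2 encodes a protein that switches RAS off.

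T cell identity genes outside receptor signalling were read beside them. Of 20 tested, 1 fell, Cd27 (-0.40 ± 0.07, limma adjusted p = 0.00911), and 0 rose in limma, against 9.48% and 16.6% of all genes tested. At an unadjusted limma p under 0.05, 5 of the 20 lay lower and 1 higher. The 20 changes ranged from -0.46 to 0.22 with a median of -0.06, and 14 of 20 lay below 0 (51.4% of all genes tested). All TGC3 arrays lay below all TG arrays for 7 of 20 (22.4% of all genes tested) and above them for 1 (24.3% of all genes tested). The summed linear signal (in units of the array's 75th percentile) of the 36 members was 1425 to 1551 in TG and 1275 to 1378 in TGC3, without overlap. That of the identity genes was 1103 to 1151 in TG and 1024 to 1127 in TGC3, with overlap. Such sums weigh the brightest genes most and do not speak for each member. The brightest members by TG mean were Cd8b1 (8.18), Cd8a (7.55), Cd3d (7.27) and Ptprc (7.13). Of these, Cd3d separated the groups, and Cd8b1, Cd8a and Ptprc did not.

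Markers of other cell types were read as well, and in 7 of 8 lists at least 1 gene passed the test. Their counts stand beside 16.6% of all genes tested that rose, a share that moved with signal: in the dimmest decile 444 of 1640 genes rose, with a median change of 0.33, and in the brightest 90 of 1640. Of 11 neutrophil markers on the array 4 were tested, 2 rose (S100a8 and S100a9), and their summed signal was 0.110 to 0.173 in TG and 1.63 to 8.03 in TGC3. Other neutrophil genes such as Elane, Camp, Ngp and Ltf had no probe above background on 3 arrays. For macrophages and monocytes 7 of 14 were tested, 3 rose (Lyz2, C1qb and Marco), and the sum was 0.821 to 0.986 in TG and 1.26 to 3.36 in TGC3, with C1qa, Timd4 and Vsig4 not kept. For B cells 5 of 10 were tested, 3 rose and 1 fell, with Pax5 and Ebf1 not kept. The B cell marker changes ranged from -0.92 to 4.13 with a median of 0.68. Their sums, which weigh bright genes most, overlapped at 6.22 to 7.52 in TG and 6.08 to 6.54 in TGC3. For NK and gamma-delta T cells 5 of 6 were tested and 2 fell (Cd163l1 and 5830411N06Rik), with a sum of 13.3 to 14.99 in TG and 6.83 to 11.2 in TGC3. The sums for dendritic cell markers (4 of 7 tested, 2 rose, 18.4 to 20.9 in TG and 14.3 to 23.7 in TGC3) and CD4 T cell markers (3 of 4, 0 rose or fell in limma, nor at an unadjusted p under 0.05, 1.07 to 1.16 and 1.11 to 1.46, Foxp3 not kept) overlapped. Those for hepatocyte markers (2 of 11, 1 rose, 0.195 to 0.214 and 0.219 to 0.256, Alb not kept) and for liver endothelial and stellate markers (3 of 9, 2 rose, 0.206 to 0.215 and 0.312 to 0.341, Kdr and Dcn not kept) lay higher on every TGC3 array. The part of these cells in the members' falls was not tested.

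RefSeq promoter windows, from 250 bases before to 50 after the start (GRCm38.p6), matched 31 of the 37 members. The ETS core AGGAAG, searched on both strands, was found in 22 of them (71.0%) and in 38.4% of all 27025 genes in the table. It was in 4 of the 7 matched genes that fell and in 18 of the other 24. The RUNX core TGTGGT was found in 5 (16.1%) and in 18.9% of all genes, and the GC box GGGCGG in 17 (54.8%) and in 38.2%. The TATA box TATAAA was in 4 (12.9%, against 15.7%), the CRE TGACGTCA in 1 (3.23%, against 2.03%) and an NF-kappaB motif in 0 (against 0.466%), all on both strands. In these counts a gene held a motif if any of its windows did. By window, the ETS core was in 68.9% of member windows and 35.4% of all, and the GC box in 44.4% and 35.7%. For the RUNX core the shares were 11.1% and 16.8%. Median promoter GC content was 57.8% for members and 52.75% for all genes. The 250 bases before the start of Cd5 and of Cd3d are printed, since both genes fell and each window held 2 ETS cores, in capitals on whichever strand they lie. Those of Cd5 start at -109 and -52 from the transcription start. Those of Cd3d start at -198 and -5, so that the last core runs 1 base past the printed end.
Cd5, chr19:10738975-10739224, GRCm38.p6, minus strand: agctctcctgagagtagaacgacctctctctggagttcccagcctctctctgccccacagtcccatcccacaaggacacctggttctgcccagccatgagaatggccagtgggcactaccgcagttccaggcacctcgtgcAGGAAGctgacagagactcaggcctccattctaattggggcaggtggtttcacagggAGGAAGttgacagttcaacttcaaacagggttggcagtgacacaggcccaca
Cd3d, chr9:44981536-44981785, GRCm38.p6, plus strand: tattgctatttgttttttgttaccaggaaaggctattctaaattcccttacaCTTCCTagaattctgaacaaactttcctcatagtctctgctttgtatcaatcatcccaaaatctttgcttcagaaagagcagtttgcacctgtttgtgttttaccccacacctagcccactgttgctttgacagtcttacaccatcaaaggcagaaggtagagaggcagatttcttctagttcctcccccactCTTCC
The core occurred in matched promoters of genes that fell and of genes that did not, and a match describes letters, not binding.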

How the data were processed

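Cy3-labelled RNA of each sample was hybridised to 1 Agilent array. Of 45018 spots 43379 were not controls, and these held 41174 probes. The deposited processed signal is an intensity that Feature Extraction had already corrected for background and spatial trend, version 10.7.3.1 per the file headers and 10.7.1.1 per the submitters' processing notes. The deposited normalized values are on a log2 scale with the same sorted values in every column; how they were made is not given in the sources used here, and they served as an alternative.

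Spots of a probe were averaged as log2, 11 probes were dropped for outlier marks, and 0 spots were saturated. Each array's 75th percentile was subtracted. The 25103 probes that at least 3 of the 6 arrays called well above background were kept, and each gene name was read by its brightest kept probe. TGC3 and TG were compared with limma 3.58.1 (lmFit, eBayes) in R 4.3.3, two-sided, with Benjamini-Hochberg adjustment. The calculation was tested on simulated data. Alternatives were the other scalings, background corrections, filters, probe choices and tests named in the closing section, a block for the replicate number, and fits without each array in turn.

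The members, the other gene lists and the alternatives were chosen with earlier results of these data known. All 37 members are accounted for. Full statistics were to be given for members past the threshold or with probes that differ in call. Array values of the uncalled Cd8a, Cd8b1, Lck, Zap70, Lat, Txk, Cd3e and Bcl10 were added after their values were seen. Of the other pathway and identity genes, at most the 6 with the largest change past the threshold in each direction are named. Same-numbered arrays of the groups did not deviate together (correlations of -0.003, -0.08 and -0.10). With 3 arrays per group this cannot settle whether the numbers pair samples, which the labels do not say. The number of arrays limits the precision.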

Additional observations from a re-analysis of the deposited data

How the results depend on the processing

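The sign of the members' median and of each of the 4 roles' medians stayed negative in every setting run but normexp background correction without repair, where the values were 0.17 for all members, 0.18 for receptor chains, 0.29 for kinases, 0.16 for adaptors and 0.14 for negative regulators. There 1 gene in all was called (1 lower, 0 higher), 0 members, 0 member probes, 0 other pathway genes and 0 identity genes fell, and single changes turned to 0.12 (Cd3e), 0.18 (Cd3d), 0.15 (Cd3g), 0.30 (Cd247), 0.26 (Cd8a), 0.33 (Cd8b1), 0.10 (Cd28), 0.29 (Lck), 0.19 (Zap70), 0.31 (Ptprc), 0.32 (Prkcq), 0.20 (Plcg1), 0.30 (Lat), 0.37 (Lcp2), 0.25 (Grap2), 0.11 (Themis), 0.090 (Vav1), 0.14 (Rasgrp1), 0.11 (Bcl10), 0.16 (Malt1), 0.35 (Nfatc1), 0.14 (Pag1), 0.22 (Ptpn22), 0.15 (Dgkz), 0.15 (Ubash3a), 0.029 (Cd5), 0.038 (Cd6) and 0.26 (Tgfbr2). Replacing 7 aberrant spot backgrounds on TG 3 brought all of these back below 0. Median centring gave 6587 calls (4784 lower, 1803 higher), 28 members, 43 member probes, 34 other pathway genes and 9 identity genes lower, and a members' median of -0.35, and it turned Fyn to -0.16, Nfatc3 to -0.086, Csk to -0.018 and Dgka to -0.10. Quantile normalization gave 4 members and 8 other pathway genes lower (median -0.12) and turned Prkcq to 0.018, Themis to 0.013 and Nfatc1 to 0.068, and the deposited values gave the same counts (median -0.12; Prkcq 0.017, Themis 0.013, Nfatc1 0.069). Cyclic loess gave 2 members, 5 member probes and 8 other pathway genes lower (median -0.089) and turned Cd8b1 to 0.016, Prkcq to 0.025, Lcp2 to 0.00075, Themis to 0.026 and Nfatc1 to 0.078. Of all 16395 genes tested, 1413 were lower with quantile normalization, 1408 with the deposited values and 1222 with cyclic loess. Without a filter there were 2674 calls (579 lower), with 0 members, 0 member probes and 6 other pathway genes lower, and among genes above the median signal 2112 calls (736 higher), with 14 member probes and 3 identity genes lower. With array weights 2420 genes, 17 member probes and 3 identity genes were lower and 2 other pathway genes higher, and with trend and robust settings 14 members, 17 member probes and 3 identity genes were lower. Trend and robust settings gave 2003 of all 16395 genes tested lower. The most variable probe gave 1 member higher (Cd28), 2 other pathway genes higher and 2 identity genes lower, and turned Cd247 to 0.56, Cd28 to 0.75, Plcg1 to 0.15, Themis to 0.086 and Csk to -0.28. The mean of a gene's probes gave 1 other pathway gene higher and turned Cd247 to 0.093, Cd28 to 0.31, Themis to 0.057 and Csk to -0.064. The cause of these differences was not tested, apart from the repaired backgrounds.

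The replicate number, which the labels do not say pairs samples, gave 2355 calls as a block (554 lower, 1801 higher). In that fit 1 member (Ptpn6), 0 member probes and 4 other pathway genes were lower, and 1 probe pair differed. Without 1 array the counts were 2370 to 3870 genes called (572 to 1507 lower, 1759 to 2363 higher), 0 to 7 members, 0 to 8 member probes, 5 to 10 other pathway genes and 1 to 2 identity genes lower, and 0 to 2 other pathway genes higher, while Fyn ranged from -0.063 to 0.095, Themis from -0.062 to 0.014 and Nfatc1 from -0.060 to 0.053. Beyond the number of arrays, 2 member probes (of Pag1 and Ptpn6) lay above background on 2 of 3 TGC3 arrays, and every other kept member probe on all 6.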
